A study of Mus musculus with 4 samples.

Results

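The GM-CSF and PPAR-gamma axis of the lung was followed through 10 genes, taken by symbol from the 31053 genes of the count matrices: Csf2ra, Csf2rb and Csf2rb2 (receptor subunits), Pparg, Bhlhe40, Bhlhe41 and Cebpb (transcription factors), and Fabp4, Cd36 and Car4 (lipid handling genes and a surface enzyme). All 10 were found, and all 10 passed the filter on low counts in alveolar macrophages. The knockout mice were Lmna-flox/flox Vav1-cre+/- and the WT mice were Lmna-flox/flox Vav1-cre-/-, so both groups carried the floxed alleles of Lmna, the gene of lamins A and C. All were C57BL/6J and 10 weeks old, and live CD45.2+ cells sorted from the lungs of 2 mice per genotype gave 4 single-cell libraries. Vav1-cre is active in blood-forming cells and their descendants rather than in macrophages alone. Cre was present in every knockout mouse and in no WT mouse, so what Cre does and what loss of Lmna does cannot be told apart.

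GM-CSF is a cytokine of the lung epithelium and of activated lymphocytes. It binds a receptor made of an alpha chain (Csf2ra) and a shared beta chain (Csf2rb) that signals through JAK2 and STAT5, and this signal is needed for fetal monocytes to become alveolar macrophages, in part by inducing Pparg. PPAR-gamma is a nuclear receptor for lipid ligands that works with a retinoid X receptor partner and drives genes for the uptake, storage and export of the fats of surfactant, which alveolar macrophages clear from the airspace.

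Alveolar macrophages were gated per cell from 8 markers that include none of the 10 genes (Siglecf, Marco, Plet1, Krt79, Atp6v0d2, Ear1, Mrc1 and Chil3). All 8 markers were detected in the gated cells of each library, with summed levels of 20679 and 17195 CPM in knockout libraries and 19979 and 20441 CPM in WT libraries (CPM, UMIs of a gene or list per 1000000 UMIs of the cells summed in a library). Most of that level was Chil3, at 15403 and 12903 CPM in knockout libraries and 14753 and 15094 CPM in WT libraries. Siglecf (122 and 106 CPM in knockout libraries, 141 and 171 CPM in WT libraries), Ear1 (445 and 418 CPM in knockout libraries, 572 and 659 CPM in WT libraries), Krt79 (454 and 229 CPM in knockout libraries, 502 and 571 CPM in WT libraries) and Mrc1 (744 and 646 CPM in knockout libraries, 1172 and 1128 CPM in WT libraries) were lower in both knockout libraries. Marco (1114 and 820.0 CPM in knockout libraries, 614 and 647 CPM in WT libraries) and Atp6v0d2 (920.4 and 797 CPM in knockout libraries, 726 and 729 CPM in WT libraries) were higher in both. Plet1 overlapped (1475 and 1276 CPM in knockout libraries, 1498 and 1442 CPM in WT libraries), as did Chil3. Groups without overlap were also found for 50.7% of the 8956 genes tested in these cells. There were 52 and 35 such cells in knockout libraries (1.42% and 1.0% of kept cells) and 220 and 225 in WT libraries (5.76% and 5.98%). Of the 532 gated cells, 529 lay in the matching cluster of an unsupervised clustering made without the 10 genes. Over the series, 14720 cells were kept from 16528 barcodes and 97109691 UMIs, 94.6% to 96.7% of the kept cells of a library held a UMI of Ptprc (CD45), and library pairs shared 2 to 7 barcodes.

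Lmna itself was at 57.1 and 73.7 CPM in alveolar macrophages of knockout libraries, against 387 and 336 CPM in those of WT libraries. The log2 fold change, knockout minus WT as throughout, was -2.40 ± 0.18 (standard error, n = 2 libraries each, and 1 mouse a library as the labels count them; adjusted p = 3.04e-09, edgeR quasi-likelihood test). The labels do not say which exons are floxed, so the UMIs that remain do not measure how completely the gene was deleted.

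The promoters of the 3 genes whose level passed the test in alveolar macrophages are shown for the core hexamer AGGTCA (either strand) that nuclear receptors such as PPAR-gamma bind. The windows are the 250 bases before the start of a RefSeq transcript (GRCm38.p6), 5′ to 3′ on the gene's strand, with the hexamer or its reverse complement in capitals. They are chr5:17835897-17836146 (minus strand) for Cd36, chr6:115360894-115361143 (plus strand) for the first of 3 Pparg starts, and chr11:84957504-84957753 (plus strand) for Car4.
Cd36: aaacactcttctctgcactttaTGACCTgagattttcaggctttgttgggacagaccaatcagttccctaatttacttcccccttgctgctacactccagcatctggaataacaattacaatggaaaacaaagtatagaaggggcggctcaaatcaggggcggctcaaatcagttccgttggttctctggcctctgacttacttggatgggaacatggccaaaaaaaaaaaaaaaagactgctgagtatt
Pparg: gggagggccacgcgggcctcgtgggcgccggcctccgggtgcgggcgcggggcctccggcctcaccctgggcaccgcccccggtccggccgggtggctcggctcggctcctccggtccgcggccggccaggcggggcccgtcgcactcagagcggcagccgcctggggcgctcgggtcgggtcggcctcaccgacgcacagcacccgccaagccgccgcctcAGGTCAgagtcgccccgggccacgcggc
Car4: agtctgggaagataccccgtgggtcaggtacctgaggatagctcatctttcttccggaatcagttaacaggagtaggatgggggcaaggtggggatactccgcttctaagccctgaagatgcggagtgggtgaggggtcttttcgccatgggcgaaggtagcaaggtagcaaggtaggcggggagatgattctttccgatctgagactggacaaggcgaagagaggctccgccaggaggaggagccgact

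The hexamer began 228 bases before the Cd36 transcript start used here and 28 bases before the first Pparg start, and no copy lay in the Car4 window. The Cd36 window lies inside the annotated gene (17781690 to 17888801, minus strand), so any start upstream of it was not examined. In all, 3 of the 9 promoter windows found for 7 of the genes held it (Cd36 and 2 of the 3 Pparg starts), against 14.0% of 32851 mouse promoters of the same length. The full PPAR element DR1, a direct repeat of the hexamer with 1 base between, was in none of the 9 windows and in 0.0335% of all promoters, and the C/EBP palindrome TTGCGCAA was likewise in none of the 9 and in 0.164% of all. Among the other windows, the STAT5 motif TTCNNNGAA was found 15 bases before the start of Csf2rb2 (7.02% of all promoters), and the E-box CACGTG was found 153 bases before the start of Bhlhe41 (6.02% of all promoters). All motifs were searched on both strands. These matches describe letters in a window and no binding was measured.

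In alveolar macrophages, Cd36 and Pparg were lower in knockout libraries, Car4 was higher, and the other 7 genes did not pass the test. That is 1 gene higher and 2 lower of 10, where 3.07% of the 8956 genes tested were higher and 2.48% were lower in these cells (5.55% in either direction). The median log2 fold change of the 10 genes was -0.14, against 0.01 over all genes tested. A level within a class is relative to the UMIs of that class.

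**Figure D1:**
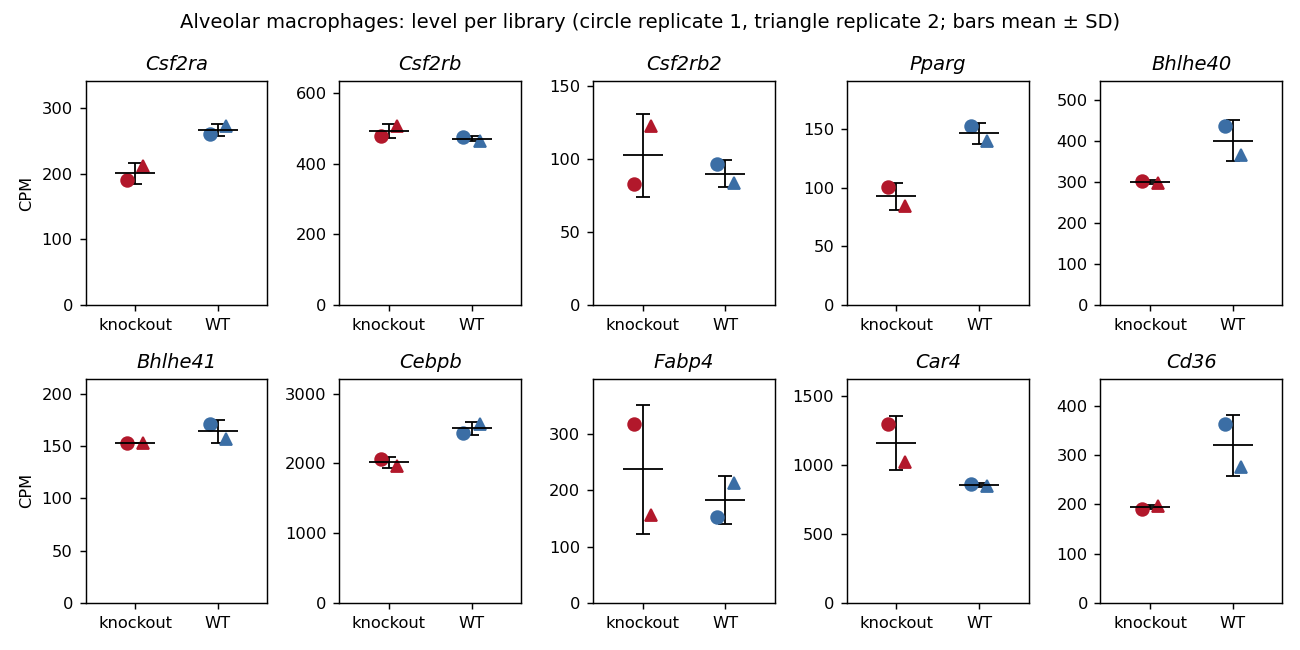
Level of each of the 10 genes in alveolar macrophages (y axis, CPM from 0), with knockout libraries left of WT libraries; circles are replicate 1, triangles replicate 2, and bars the mean and SD of 2 libraries. Cd36 and Pparg lie lower and Car4 higher in both knockout libraries than in both WT libraries, while Fabp4 spreads from 157 to 319 CPM within the knockout group.

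Cd36, a scavenger receptor and fatty acid transporter (ENSMUSG00000002944, mm10, chromosome 5, 17781690 to 17888801, minus strand), was at 191 and 197 CPM in knockout libraries, against 364 and 276 CPM in WT libraries. The groups did not overlap, which was also true of 50.7% of all genes tested in these cells. Cd36 passed the test at -0.66 ± 0.16 on the log2 scale (adjusted p = 0.0143). This call was lost without WT replicate 1 (log2 fold change -0.47, adjusted p = 0.350), knockout replicate 1 (-0.65, adjusted p = 0.0875) or knockout replicate 2 (-0.68, adjusted p = 0.0668), and adjusted p ran from 0.000267 to 0.350 over all alternatives.

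Pparg (ENSMUSG00000000440, chromosome 6, 115360951 to 115490399, plus strand) was at 101 and 84.5 CPM in knockout libraries, against 152 and 140 CPM in WT libraries, again without overlap. Pparg passed the test narrowly, at -0.59 ± 0.17 on the log2 scale (adjusted p = 0.0421). These levels rest on 67 and 55 UMIs in knockout cells and 553 and 411 UMIs in WT cells. The direction held in each of 14 alternatives and an adjusted p under 0.05 in 6 of them. DESeq2 gave an adjusted p of 0.128, and leaving out WT replicate 1, WT replicate 2 or knockout replicate 2 gave 0.310, 0.124 and 0.189.

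Car4, a carbonic anhydrase anchored to the outer cell surface (ENSMUSG00000000805, chromosome 11, 84957786 to 84966044, plus strand), was at 1299 and 1023 CPM in knockout libraries, against 863 and 845 CPM in WT libraries. Both knockout libraries lay above both WT libraries, and the spread between the knockout libraries was the larger. Car4 passed the test at 0.51 ± 0.14 on the log2 scale (adjusted p = 0.0322). Its adjusted p was under 0.05 in 9 of 14 alternatives and ran from 0.00268 to 0.533, and the call was lost with a stricter cell filter. The value was 0.31 (adjusted p = 0.255) without knockout replicate 1, and 0.21 (adjusted p = 0.533) when gated cells holding any UMI of a B, T or NK cell marker were left out, which left 14 cells in knockout replicate 2. Without WT replicate 1 or WT replicate 2 it was 0.50 and 0.49 (adjusted p = 0.252 and 0.189).

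Fabp4, a lipid-binding protein of the cytosol and a known PPAR-gamma target, did not pass the test. It was at 319 and 157 CPM in knockout libraries, against 153 and 214 CPM in WT libraries, and the knockout libraries lay on either side of WT replicate 2. The log2 fold change was 0.44 ± 0.47 (adjusted p = 0.722), and without knockout replicate 1 it was -0.17. It passed in 1 of 14 alternatives, without cells holding lymphocyte marker UMIs (0.58, adjusted p = 0.0498). Its UMIs were concentrated in few cells. The tenth of alveolar macrophages richest in Fabp4 held 59.0% and 48.0% of its UMIs in knockout libraries and 45.9% and 54.5% in WT libraries. For Cebpb the same share was 25.7% and 23.8% in knockout libraries and 20.5% and 21.5% in WT libraries. Up to 34 Fabp4 UMIs came from 1 cell of knockout replicate 1 and up to 46 from 1 cell of WT replicate 2, where the median cell had 1.

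Among the receptor subunits no change passed the test. Csf2ra, the GM-CSF-specific alpha chain, was at 189 and 212 CPM in knockout libraries, against 260 and 272 CPM in WT libraries. These groups did not overlap, which held for 8 of the 10 genes (Fabp4 and Csf2rb2 overlapped) and for 50.7% of all genes tested, but the log2 fold change of -0.34 ± 0.15 had an adjusted p of 0.194, which ranged from 0.0734 to 0.572 over the alternatives. Csf2rb, the beta chain shared with the receptors for IL-3 and IL-5, was at 478 and 507 CPM in knockout libraries, against 475 and 465 CPM in WT libraries (log2 fold change 0.13 ± 0.14, adjusted p = 0.657). Csf2rb2, the IL-3-specific beta chain found in mice, was at 82.7 and 123 CPM in knockout libraries, against 96.5 and 83.4 CPM in WT libraries (0.25 ± 0.19, adjusted p = 0.504). Csf2rb2 and Csf2rb lie 20030 bases apart on chromosome 15 and are near copies. They shared 28.0% of the 31-base words of the Csf2rb transcript, but 1.28% of those in its last 500 bases, where this 3-prime kit reads, so the split of reads between them is uncertain to that extent.

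The other transcription factors did not pass the test. Bhlhe40, a basic helix-loop-helix repressor that, with Bhlhe41, sustains self-renewal of mouse alveolar macrophages, was at 304 and 298 CPM in knockout libraries, against 438 and 366 CPM in WT libraries (log2 fold change -0.35 ± 0.14, adjusted p = 0.167). Bhlhe41 was at 153 and 154 CPM in knockout libraries, against 172 and 157 CPM in WT libraries (-0.03 ± 0.16, adjusted p = 0.945). The paralogues thus had unlike estimates, but their difference was not tested. Cebpb, a leucine zipper factor of macrophages and neutrophils, was at 2069 and 1962 CPM in knockout libraries, against 2432 and 2571 CPM in WT libraries (-0.25 ± 0.13, adjusted p = 0.305).

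Shares of cells with a UMI were compared after each cell was thinned to 2000 UMIs, since depth differed (median 13665 and 17556 UMIs per alveolar macrophage in knockout libraries, and 16814 and 13404 in WT libraries). For Cd36 25.5% and 25.7% of thinned knockout cells held a UMI, against 46.1% and 37.1% of WT cells; the unthinned shares were 71.2% and 80.0% in knockout libraries and 86.4% and 78.7% in WT libraries. For Pparg the thinned shares were 14.9% and 11.4% in knockout libraries and 25.3% and 23.5% in WT libraries, and the unthinned shares 63.5% and 77.1% in knockout libraries and 84.1% and 74.2% in WT libraries. For Car4 they were 89.4% and 77.1% in knockout libraries and 59.9% and 63.4% in WT libraries when thinned, and 98.1% and 94.3% in knockout libraries and 94.1% and 89.3% in WT libraries when not. The thinned shares of Cd36 and Pparg were thus lower, and those of Car4 higher, in each knockout library than in either WT library, as were the CPM levels. The 95% exact binomial intervals of the knockout shares were wide, for example 3.20% to 26.7% for Pparg in knockout replicate 2, and cover counting error only. Thinning left out 5 and 0 cells of knockout libraries and 3 and 12 cells of WT libraries as too shallow. In B cells, taken as a background of free RNA, thinned shares were at most 2.50% for Cd36, 0.499% for Car4 and 0% for Pparg, at median depths of 3412 to 3870 UMIs. Median Cd36 levels were 14.8 CPM in B cells, against 0.268 CPM in T cells and 0.659 CPM in NK cells. How much of the B cell share of Cd36 was free RNA was not tested.

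Marker levels of other cell types were read in the same gated cells, because Cd36, Fabp4 and Car4 are also made by endothelial, epithelial or monocytic cells, of which the CD45.2+ sort should remove the endothelial and epithelial ones. Of 6 endothelial markers, Cldn5, Cdh5 and Tie1 were at 0 UMIs in all 4 libraries. The summed endothelial level was 30.1 and 30.7 CPM in knockout libraries and 41.6 and 33.0 CPM in WT libraries, nearly all of it Calcrl. The summed level of 7 epithelial markers was 129 and 46.1 CPM in knockout libraries and 136 and 97.1 CPM in WT libraries, with 5 to 7 markers detected. The 6 nonclassical monocyte markers summed to 33.1 and 99.8 CPM in knockout libraries and 62.9 and 64.0 CPM in WT libraries, with 5 or 6 detected. The 7 B cell markers were at 49.6 and 195 CPM in knockout libraries and 133 and 11.6 CPM in WT libraries, and the 6 T cell markers at 10.5 and 121 CPM in knockout libraries and 48.2 and 29.97 CPM in WT libraries. The classical monocyte list was higher in all libraries, at 699 and 1032 CPM in knockout libraries and 906 and 1060 CPM in WT libraries. So were the cDC1 list (720 and 683 CPM in knockout libraries, 670 and 719 CPM in WT libraries) and the plasma cell list. The latter was at 368 and 296 CPM in knockout libraries and 361 CPM in both WT libraries. Few genes made up most of these sums. In WT replicate 1, Fn1 and Mgst1 held 2156 and 1027 of 3286 classical monocyte list UMIs. Naaa and Wdfy4 held 1894 and 484 of 2432 cDC1 list UMIs, and Xbp1 1240 of 1310 plasma cell list UMIs. Over the lists of all 22 other cell types, the groups were apart for 6. Of the single genes tested in these cells, 50.7% had groups that did not overlap. Endothelial markers and interstitial macrophage markers (7.52 and 9.21 CPM in knockout libraries, 11.9 and 25.9 CPM in WT libraries) were lower in knockout libraries. NK cell markers were narrowly lower (6.02 and 7.68 CPM in knockout libraries, 7.72 and 8.85 CPM in WT libraries), on 4 and 5 UMIs in knockout libraries. Mast cell markers had 0 UMIs in both knockout libraries and 1 UMI in each WT library (0.276 and 0.341 CPM), too few to give an order. Platelet markers (16.5 and 36.9 CPM in knockout libraries, 10.2 and 9.88 CPM in WT libraries) and migratory dendritic cell markers (21.1 and 16.9 CPM in knockout libraries, 15.7 and 9.19 CPM in WT libraries) were higher in knockout libraries. The part of other cells in the results was not tested.

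Across the 12 classes with at least 10 cells in every library, the 10 genes fell into different patterns. They were chosen for a known pattern, so the levels are a description without a test. No cluster matched cDC1 (0 of 59 gated cells), and 51 of 81 gated epithelial cells lay in the matching cluster. Car4 and Bhlhe41 had their highest level in alveolar macrophages and overlapped with no other class. Car4 had a median of 943 CPM over the 4 libraries there and at most 2.23 CPM in any other class. Cells gated as endothelial, too few to be listed (4 to 6 cells per library), held 544 and 1423 CPM in knockout libraries and 1703 and 1857 CPM in WT libraries. Bhlhe41 had a median of 155 CPM in alveolar macrophages (153 to 172), followed by B cells with 32.0 CPM and interstitial macrophages with 24.6 CPM, whose ranges overlapped.

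**Figure D2:**
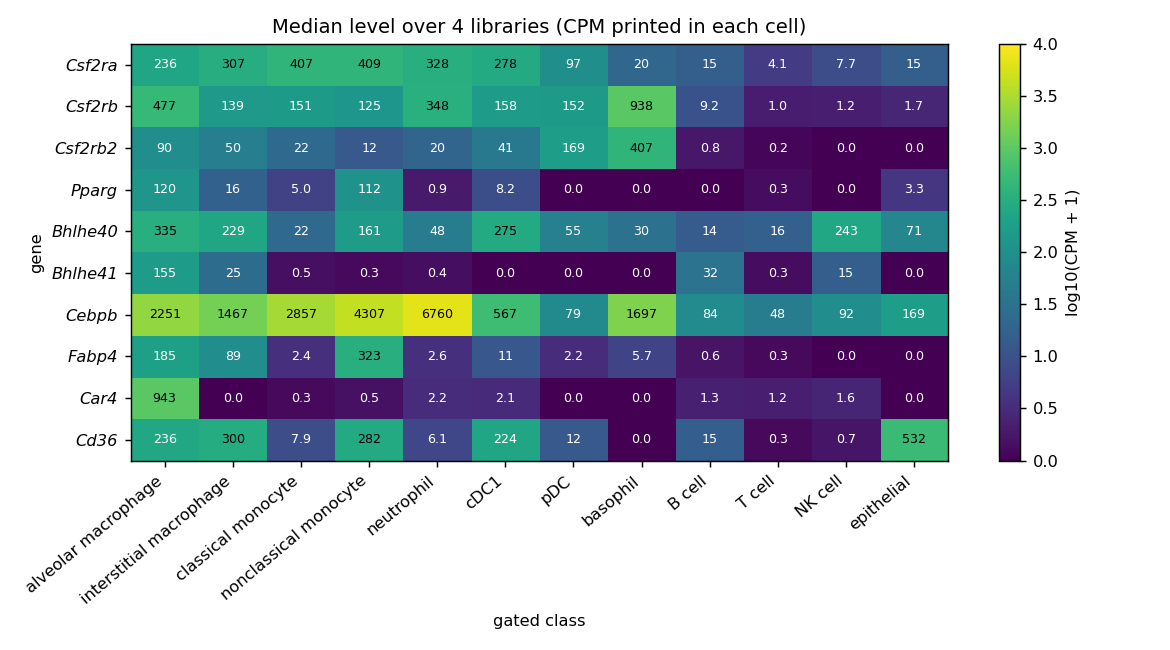
Median level over the 4 libraries of each gene (rows) in 12 gated classes (columns); colour is log10(CPM + 1) and the printed value is CPM. Car4 is at 943 CPM in alveolar macrophages and near 0 elsewhere, Pparg is at 120 and 112 CPM in alveolar macrophages and nonclassical monocytes, and Cebpb reaches 6760 CPM in neutrophils.

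Pparg was not restricted to alveolar macrophages. Nonclassical monocytes, the patrolling monocytes of the vessel wall, had 99.99 and 117 CPM in knockout libraries and 120 and 107 CPM in WT libraries, a range that overlapped that of alveolar macrophages (84.5 to 152 CPM). The next class, interstitial macrophages, had a median of 16.2 CPM and classical monocytes 4.96 CPM. Among the classes listed, Fabp4 was highest in nonclassical monocytes (median 323 CPM, 211 to 433). Alveolar macrophages followed (185 CPM, 153 to 319), with overlapping ranges. In WT replicate 1 these classes held 29.96% and 26.1% of all Fabp4 UMIs, and the next listed class held 1.55%. The shares were 35.9% and 55.7% in WT replicate 2. In knockout libraries they were 69.3% and 16.4% (replicate 1) and 72.0% and 12.7% (replicate 2). Much of the Fabp4 in WT replicate 1 thus lay outside the listed classes, where its level was not compared. Cd36 had medians of 532 CPM in epithelial cells, 300 CPM in interstitial macrophages, 282 CPM in nonclassical monocytes, 236 CPM in alveolar macrophages and 224 CPM in cDC1 (a subset of conventional dendritic cells), against 7.91 CPM in classical monocytes. The epithelial range (426 to 635 CPM) overlapped that of interstitial macrophages (213 to 448 CPM), and so on down to cDC1, each class overlapping the next.

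The receptor subunits had different leading classes. Csf2ra was highest in nonclassical and classical monocytes (medians 409 and 407 CPM, overlapping), then neutrophils (328 CPM), interstitial macrophages (307 CPM), cDC1 (278 CPM) and alveolar macrophages (236 CPM). Neutrophils, interstitial macrophages, cDC1 and alveolar macrophages each overlapped the next in that order. Csf2rb was highest in basophils (938 CPM, 823 to 1150), then alveolar macrophages (477 CPM, 465 to 507) and neutrophils (348 CPM, 327 to 394), and these 3 ranges did not overlap. Csf2rb2 was highest in basophils (407 CPM), then plasmacytoid dendritic cells (169 CPM) and alveolar macrophages (90.0 CPM).

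**Figure D3:**
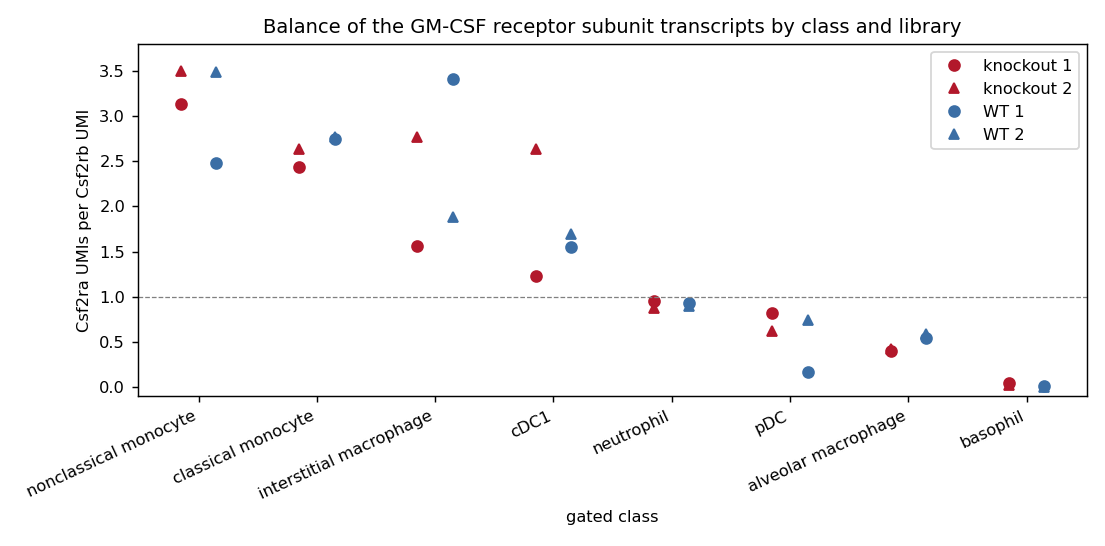
Csf2ra UMIs per Csf2rb UMI (y axis) in 8 myeloid classes (x axis), knockout libraries left of WT libraries; circles are replicate 1 and triangles replicate 2, and the dashed line marks equal UMIs. Monocytes lie between 2.44 and 3.50, alveolar macrophages between 0.396 and 0.586 and basophils at or below 0.0435.

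The balance of alpha to beta chain UMIs differed between classes, and is read only as a contrast between classes because UMIs of different genes are not equally captured. Alveolar macrophages had 0.396 and 0.418 Csf2ra UMIs per Csf2rb UMI in knockout libraries, against 0.547 and 0.586 in WT libraries. Neutrophils had 0.954 and 0.876 in knockout libraries, against 0.935 and 0.892 in WT libraries, and classical monocytes 2.44 and 2.63 in knockout libraries, against 2.74 and 2.76 in WT libraries. Basophils, with 0.0435 and 0.0246 in knockout libraries against 0.0164 and 0 in WT libraries, held 9 Csf2ra UMIs beside 428 Csf2rb UMIs over the 4 libraries. Plasmacytoid dendritic cells, with 0.818 and 0.615 in knockout libraries against 0.162 and 0.744 in WT libraries, overlapped alveolar macrophages. The ranges of cDC1 (1.23 to 2.63), interstitial macrophages (1.56 to 3.42) and both kinds of monocyte also overlapped. Basophils also had the highest Il3ra, the IL-3 receptor alpha chain, at 102 and 171 CPM in knockout libraries and 151 and 107 CPM in WT libraries. The knockout and WT ratios did not overlap in alveolar macrophages, but also not in classical monocytes, basophils or B cells. In B cells they were 2.54 and 2.42 in knockout libraries, against 0.808 and 1.0 in WT libraries. Knockout ratios were lower in alveolar macrophages and classical monocytes and higher in basophils and B cells, and no difference between genotypes was tested.

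Bhlhe40 was highest in alveolar macrophages (median 335 CPM), but cDC1 (275 CPM), NK cells (243 CPM) and interstitial macrophages (229 CPM) followed, each overlapping the next in the order. Cebpb was highest in neutrophils (6760 CPM, 5960 to 7236) and then in nonclassical monocytes (4307 CPM), classical monocytes (2857 CPM) and alveolar macrophages (2251 CPM), of which the last 2 overlapped.

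By a rule based on levels alone, the genes most like each of the 10 over the 48 class and library profiles were listed by Pearson correlation of log2(CPM + 1), among 9495 genes. The 48 points share 4 libraries and differ in depth, so r is a description. Car4 was most like Cidec (r = 0.94), a lipid droplet protein, then Ear1 (0.91), which is a marker of the gate, and Fabp1 (0.91). Pparg was most like Lilra5 (0.92), Ear2 (0.87) and Itgb5 (0.86), and Fabp4 was most like Ear2 (0.90), Lilra5 (0.90) and Pparg (0.84). Csf2rb was most like Alox5ap (0.95), Csf2rb2 (0.91) and Ncf1 (0.91), and Csf2rb2 was most like Csf2rb. Csf2ra was most like Cd300c2 (0.94), Cd68 and Gpr35 (0.91 each), and Cebpb like Pygl (0.96), Cd300lb and Igsf6 (0.94 each). Cd36, Bhlhe40 and Bhlhe41 had weaker best matches, in Gm42418 (0.85), 1810037I17Rik (0.84) and B3gnt7 (0.82).

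In classical monocytes, nonclassical monocytes and neutrophils none of the 10 genes passed the test, where 0.616%, 0.689% and 0.495% of all genes did. Not all 10 could be tested. Fabp4, Bhlhe41 and Car4 were too low for a test in classical monocytes, and Bhlhe41 and Car4 in nonclassical monocytes. Lmna itself was low in these classes, so its loss could not be read there as in alveolar macrophages. In classical monocytes it was at 10.2 and 14.6 CPM in knockout libraries, against 19.9 and 11.1 CPM in WT libraries (log2 fold change -0.28 ± 0.33, adjusted p = 0.862, edgeR). In nonclassical monocytes and neutrophils Lmna was too low for a test. In nonclassical monocytes Cd36 was at 289 and 296 CPM in knockout libraries, against 274 and 261 CPM in WT libraries (log2 fold change 0.15 ± 0.10, adjusted p = 0.630), and Pparg stood at -0.05 ± 0.13 (adjusted p = 0.934). The Cd36 groups did not overlap there, as for 43.1% of the genes tested in these monocytes. Fabp4 in nonclassical monocytes was at 433 and 320 CPM in knockout libraries, against 326 and 211 CPM in WT libraries (0.51 ± 0.24, adjusted p = 0.532), and passed the test without WT replicate 1 (0.84, adjusted p = 0.0445) and without a filter on low counts (0.52, adjusted p = 0.00166). In classical monocytes Bhlhe40 was at 42.5 and 20.8 CPM in knockout libraries, against 11.6 and 23.3 CPM in WT libraries (0.77 ± 0.46, adjusted p = 0.701), and passed without knockout replicate 2 (1.20, adjusted p = 0.00247). With a library left out the Bhlhe40 value ran from 0.23 to 1.43, and the Fabp4 value in nonclassical monocytes from 0.25 to 0.84. In neutrophils the 5 genes tested (Csf2ra, Csf2rb, Csf2rb2, Bhlhe40 and Cebpb) had log2 fold changes of at most 0.04 in size. The largest size among those of the 10 genes in each fit was 0.17 to 0.34 with a library left out and 0.86 with cells grouped by cluster. Without a filter on low counts it was 3.15, in a fit that is not limited to these 5 genes. That fit also held genes with few neutrophil UMIs, such as Bhlhe41 (2 over the 4 libraries) and Pparg (4). None of the 10 passed the test in neutrophils by cluster or without the filter.

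**Figure D4:**
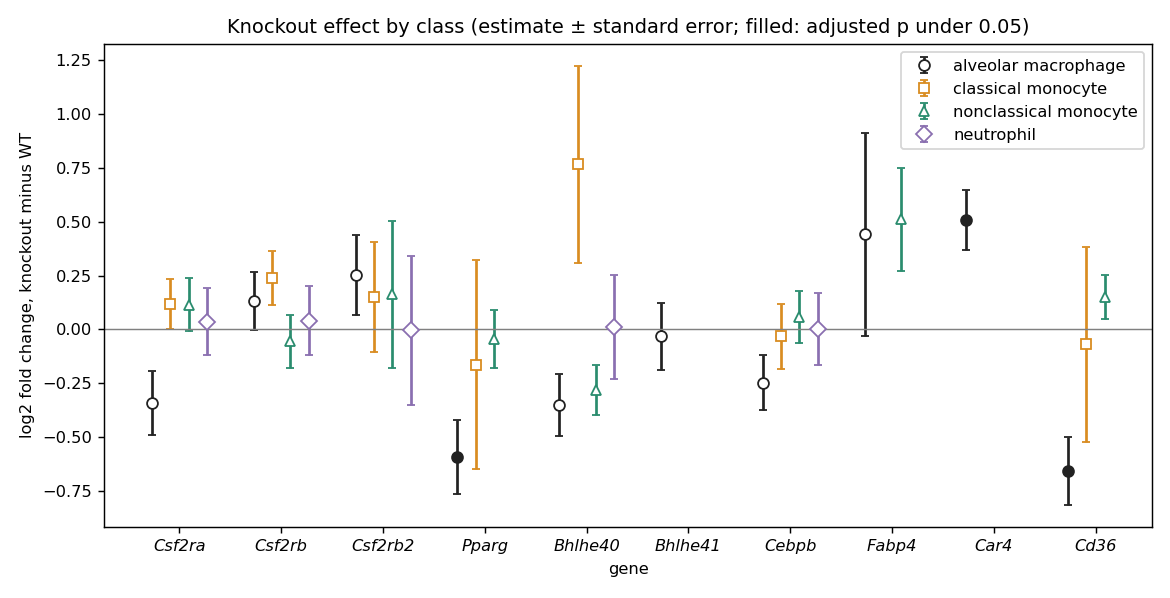
Log2 fold change, knockout minus WT, of each gene in 4 myeloid classes (y axis; point and standard error from the edgeR fit, n = 2 libraries each); filled points have an adjusted p under 0.05 and genes too low for a test in a class have no point. Cd36 is at -0.66 in alveolar macrophages and at 0.15 in nonclassical monocytes.

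The difference between classes was tested directly. The knockout effect on Cd36 was lower in alveolar macrophages than in nonclassical monocytes, with a difference of -0.87 ± 0.17 on the log2 scale (interaction of genotype and class, library as a block, adjusted p = 0.0266; 0.738% of 9626 genes passed). It was -0.66 (adjusted p = 0.243) without WT replicate 1 and -0.98 (adjusted p = 0.0599) without WT replicate 2. For Pparg the difference from nonclassical monocytes was -0.61 ± 0.21 (adjusted p = 0.288), for Csf2ra -0.53 ± 0.16 (adjusted p = 0.183) and for Cebpb -0.37 ± 0.11 (adjusted p = 0.176). With cells grouped by cluster in place of the gate these 3 passed, at -0.81 (adjusted p = 0.0425), -0.65 (adjusted p = 0.0314) and -0.46 (adjusted p = 0.0412). Of the 10 genes, none of those tested differed from classical monocytes (0.488% of genes passed) or neutrophils (0.184%) past the threshold with the gate. By cluster, Csf2ra passed against classical monocytes (-0.62, adjusted p = 0.0480) and Bhlhe40 against neutrophils (-1.31, adjusted p = 0.0116).

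Summed over all kept cells of a library, as a bulk measurement would give, none of the 10 genes passed the test, and 0.324% of 13868 genes did. Such a sum cannot tell fewer cells from less RNA per cell. It also depends on which other cells a library holds. Cells gated as T cell precursors numbered 0 and 6 in knockout libraries and 0 and 324 in WT libraries. They were 8.62% of the kept cells of WT replicate 2, and their UMIs count in the total behind every level there. Their part in these sums was not tested. Car4 was at 47.4 and 34.9 CPM in knockout libraries, against 134 and 106 CPM in WT libraries (log2 fold change -1.55 ± 0.19, adjusted p = 0.0698). This estimate is of opposite sign to that within alveolar macrophages, which held 92.9% and 94.7% of all Car4 UMIs in knockout libraries and 97.4% and 94.7% in WT libraries. Pparg was at 17.7 and 16.2 CPM in knockout libraries, against 35.8 and 27.3 CPM in WT libraries (-0.90 ± 0.16, adjusted p = 0.137), and passed without WT replicate 1 (-0.65, adjusted p = 0.0345) or WT replicate 2 (-1.08, adjusted p = 0.0189). Car4 passed without WT replicate 1 (-1.34, adjusted p = 0.0378). With alveolar macrophages left out of the sum, Pparg was at 14.8 and 13.9 CPM in knockout libraries and at 14.9 and 12.0 CPM in WT libraries (0.07 ± 0.16, adjusted p = 0.918). None of the 10 passed in that sum, and 0.00731% of genes did.

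**Figure D5:**
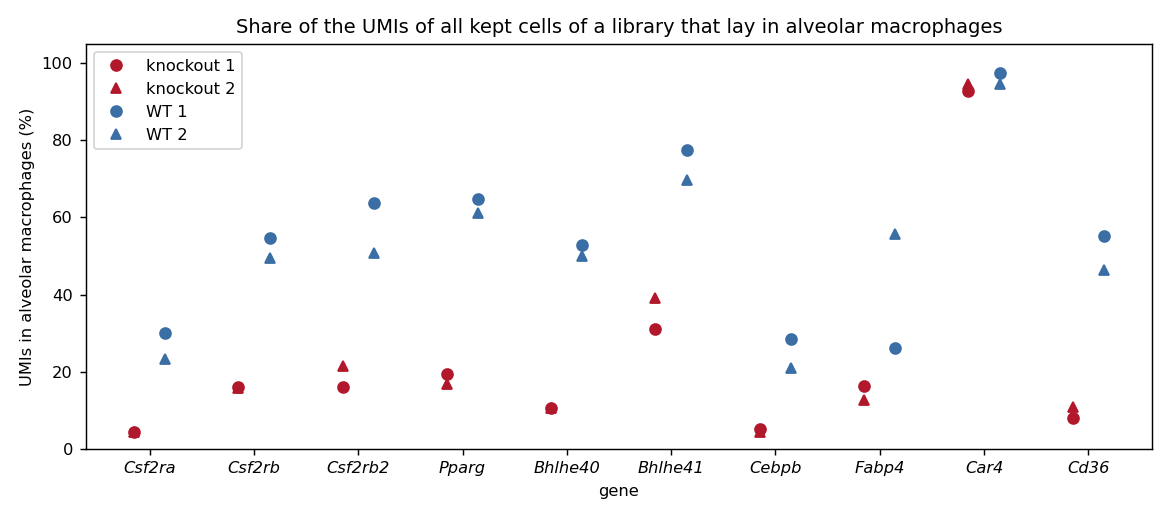
Percent of the UMIs of each gene, over all kept cells of a library, that lay in alveolar macrophages (y axis), knockout libraries left of WT libraries; circles are replicate 1 and triangles replicate 2. The share is at least 92.9% for Car4 in every library, while for Pparg it is 19.3% and 16.9% in knockout libraries against 64.7% and 61.1% in WT libraries.

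The share of a gene's UMIs held by alveolar macrophages was lower in both knockout libraries than in both WT libraries for every gene except Car4, whose groups overlapped. The same held for 97.7% of the 8956 genes tested in alveolar macrophages, at 52 and 35 gated cells in knockout libraries and 220 and 225 in WT libraries, so the lower shares are near the background and are no result about the 10 genes. For Cd36 it was 7.91% and 10.9% in knockout libraries, against 55.1% and 46.4% in WT libraries, and for Csf2ra 4.31% and 4.42% in knockout libraries, against 29.9% and 23.3% in WT libraries. Bhlhe41 kept 31.2% and 39.2% of its UMIs there in knockout libraries, against 77.5% and 69.8% in WT libraries.

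The ligand was scarce in these cells. Csf2, which encodes GM-CSF, had 34 and 10 UMIs over all kept cells of knockout libraries and 15 and 66 in WT libraries, with no order between the genotypes. No gated myeloid class among the 12 held a Csf2 UMI in any library. For WT alveolar macrophages this allows up to 0.827 and 1.02 CPM (3 counts per library), and for knockout ones up to 4.51 and 4.61 CPM. T, NK and epithelial cells held 0 to 5 UMIs per library each. The other Csf2 UMIs, 27 and 1 in knockout libraries and 10 and 62 in WT libraries, lay outside the 12 classes. Cells gated as ILC2 (type 2 innate lymphoid cells) held 16 of them in knockout replicate 1 (11 cells) and 58 in WT replicate 2 (3 cells). Il3ra had 3 and 11 UMIs in knockout alveolar macrophages (4.51 and 16.9 CPM), against 86 and 70 UMIs (23.7 and 23.8 CPM) in WT ones (log2 fold change -1.09 ± 0.41, adjusted p = 0.129).

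Of the 18 genes tested in a list of GM-CSF sister receptors and signalling genes, 1 rose and 1 fell in alveolar macrophages (median log2 fold change -0.12, against 0.01 over all genes). Over all 8956 genes tested in these cells, 3.07% were higher and 2.48% lower, which is the background for this and the following lists. The lists were chosen with earlier results of these data known, so their counts are a description. Socs3, a feedback inhibitor of cytokine receptors, was at 48.1 and 75.2 CPM in knockout libraries, against 21.8 CPM in both WT libraries (1.56 ± 0.24, adjusted p = 0.000314). Shc1, an adaptor of receptor signalling, was at 31.6 and 27.6 CPM in knockout libraries, against 60.4 and 56.2 CPM in WT libraries (-0.91 ± 0.23, adjusted p = 0.0205).

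Of 10 PPAR-gamma partners tested, Ncoa1, a coactivator of nuclear receptors, fell (55.6 and 52.2 CPM in knockout libraries, against 99.0 and 90.9 CPM in WT libraries; log2 fold change -0.75 ± 0.19, adjusted p = 0.0189), and none rose. The list had a median of -0.09. Rxra, the main retinoid X receptor partner in macrophages, stood at -0.56 ± 0.18 on the log2 scale (adjusted p = 0.0613); it and Il3ra were named after their values were seen.

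Lipid genes named as PPAR-gamma targets moved in both directions: of 26 tested, 3 rose and 5 fell, with a median log2 fold change of -0.11. Of all genes tested in these cells, 3.07% rose and 2.48% fell. The list was chosen with earlier results known, so its count is no test of PPAR-gamma output. Cidec was at 134 and 86.0 CPM in knockout libraries, against 271 and 297 CPM in WT libraries (-1.30 ± 0.18, adjusted p = 0.000123). Fabp1, a fatty acid binding protein, was at 269 and 256 CPM in knockout libraries, against 454 and 540 CPM in WT libraries (-0.85 ± 0.15, adjusted p = 0.000905). Cpt1a, the carrier enzyme for mitochondrial fatty acid oxidation, fell by 0.58, and the fatty acid synthase Fasn by 1.51 on the log2 scale (adjusted p = 0.0365 and 0.0304), the last on 5 UMIs in each knockout library. In the other direction, the desaturase Scd1 was at 48.1 and 76.8 CPM in knockout libraries, against 33.4 and 26.6 CPM in WT libraries (1.11 ± 0.24, adjusted p = 0.00717), and Angptl4, an inhibitor of lipoprotein lipase, was at 64.7 and 59.9 CPM in knockout libraries, against 37.8 and 32.0 CPM in WT libraries (0.90 ± 0.21, adjusted p = 0.0121). The remaining calls were the scavenger receptor Olr1 (-0.54 ± 0.15, adjusted p = 0.0418) and Acsl3 (1.56 ± 0.47, adjusted p = 0.0497), an acyl-CoA synthetase named after its value was seen.

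Of 18 macrophage transcription factors tested, Egr2 fell, at 150 and 129 CPM in knockout libraries against 228 and 265 CPM in WT libraries (-0.75 ± 0.16, adjusted p = 0.00589), and none rose (median -0.19). None of 8 genes of TGF-beta input passed the test (smallest adjusted p = 0.0775, median -0.06). Of 7 scavenger receptors tested, Marco and Cd68 rose and Mrc1 and Olr1 fell (median 0.04), where 3.07% of all genes rose and 2.48% fell. Marco (0.68 ± 0.15) and Mrc1 (-0.66 ± 0.14) are also markers of the gate, so they describe the gated cells and are not results; with both left out of the gate Cd36, Pparg and Car4 had log2 fold changes of -0.66, -0.59 and 0.51. Of the fatty acid binding protein family, Fabp1 was the only call among 2 genes outside the 10 that were tested. Neither of the 2 carbonic anhydrases other than Car4 that were tested passed (smallest adjusted p = 0.657).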

How the data were processed

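The deposited raw UMI counts (Chromium 3-prime v3) come from Cell Ranger 3.0.2 with Seurat 3.0.0 on mm10, per the submitters' processing notes. Total counts were 21780914 and 21849805 UMIs in knockout libraries and 26433722 and 27045250 in WT libraries. The labels speak of about 9600 cells, whereas the files hold 16528 barcodes, of which 15181 had at least 200 genes and at most 10% mitochondrial UMIs. A further 461 predicted doublets were removed. Cells were scored on marker lists (mean z-score of at least 1, a margin of 0.5 and 3 detected markers), which gave 12361 gated cells; 2359 were not gated. UMIs were summed per library and class and tested with edgeR 4.0.16 (quasi-likelihood, TMM, filterByExpr, Benjamini-Hochberg adjustment over all genes, threshold 0.05, R 4.3.3) in classes with at least 25 cells per library. P-values reflect the spread between these few mice, with a variance that the quasi-likelihood fit moderates over all genes. They do not rest on the spread of each gene alone. Standard errors are the fold change over the root of F.

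The 10 genes and the lists were chosen with earlier results of these data known. The minimum of 3 markers, the thinning depth of 2000 UMIs and the minimum of 10 cells per library for a class to be shown were set after class sizes and depths were seen. Named genes were the 10, Lmna, up to 6 list genes per list past the threshold by p, the 3 most alike genes (at least 20 CPM in a class), and defining markers. Clustering (Leiden, resolution 1, 30 components, 20 neighbours, 2000 variable genes without the 10) gave 31 clusters. Alternatives were DESeq2 1.42.0, RLE size factors, no count filter, a replicate block, each library left out, clusters, doublets kept, a stricter cell filter (500 genes, 5%), a wider margin of 1.5, and gated cells without lymphocyte marker UMIs. A gate without Marco and Mrc1, and leaving libraries out for the Cd36 interaction and for all kept cells, were added after seeing the data. The fits were also run on simulated data, but no outcome is given here, so this is no measure of their accuracy in these libraries. Positions are from GENCODE (mm10) and promoters from RefSeq (GRCm38.p6), where none of the listed promoters matched Fabp4, Csf2rb or Bhlhe40.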

Additional observations from a re-analysis of the deposited data

Results flagged for a closer look

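The knockout effect on Cd36 differed between 2 cell types: the effect in alveolar macrophages minus that in nonclassical monocytes was -0.87 on the log2 scale by the interaction test (edgeR, adjusted p = 0.0266). Cd36 was lower in both knockout libraries than in both WT libraries in alveolar macrophages, and higher in both in nonclassical monocytes, where the change did not pass the test. The interaction missed the threshold without WT replicate 1 (adjusted p = 0.243) or WT replicate 2 (adjusted p = 0.0599), and passed without knockout replicate 1 (adjusted p = 0.000782) or 2 (adjusted p = 0.00171).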

How the results depend on the processing

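Small numbers of knockout alveolar macrophages and 2 libraries per genotype limit every result. In alveolar macrophages 275 genes were higher and 222 lower, against 99 and 88 with DESeq2, 152 and 100 with the stricter cell filter (which leaves 27 and 18 knockout cells), 432 lower without a count filter, and 107 to 218 higher and 96 to 195 lower with a library left out. Of the 10 genes, 1 was higher (0 with the stricter filter, 0 to 1 with a library left out) and 2 were lower (1 with DESeq2, doublets kept, the stricter filter, the wider margin or without lymphocyte-marker cells, 0 to 1 with a library left out). Genes called in classical monocytes numbered 52 (180 without a filter, 0 to 191 with a library left out), in nonclassical monocytes 59 (284 without a filter, 89 with the stricter filter, 35 by cluster, 38 to 175 with a library left out), in neutrophils 28 (17 with DESeq2, 91 without a filter, 58 to 112) and over all kept cells 45 (1 without alveolar macrophages, 2 to 996). Interaction calls by cluster were 73 against classical monocytes, 152 against nonclassical monocytes (50 to 307 with a library left out) and 32 against neutrophils. Members called were 0 to 1 in classical monocytes, 0 to 1 in nonclassical monocytes (1 without a filter) and 0 to 2 over all kept cells.

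Estimates that changed sign were all uncalled. Bhlhe41 in alveolar macrophages was 0.067 with the stricter filter, 0.073 with the wider margin, 0.072 without lymphocyte-marker cells and 0.025 by cluster. In classical monocytes Cd36 was 0.11 with doublets kept and 0.078 by cluster, and Pparg 0.85 by cluster; in nonclassical monocytes Csf2rb was 0.032 and Pparg 0.15 by cluster. Without alveolar macrophages the sums gave 0.065 for Pparg, 0.11 for Bhlhe41, 0.38 for Csf2rb, 0.52 for Csf2rb2, 0.51 for Bhlhe40 and 0.43 for Cd36. With a library left out, alveolar macrophage values ran from -0.095 to 0.014 for Bhlhe41, -0.060 to 0.50 for Csf2rb2 and -0.17 to 0.86 for Fabp4. Classical monocyte values ran from -0.66 to 0.77 for Cd36, -0.22 to 0.20 for Cebpb, -0.11 to 0.53 for Csf2rb2 and -0.38 to 0.061 for Pparg. Nonclassical monocyte values ran from -0.030 to 0.16 for Cebpb, -0.027 to 0.28 for Csf2ra, -0.14 to 0.046 for Csf2rb, -0.16 to 0.57 for Csf2rb2 and -0.18 to 0.095 for Pparg. Sums over all kept cells ran from -0.43 to 0.13 for Bhlhe40, -0.53 to 0.015 for Cd36, -0.013 to 0.13 for Cebpb and -0.76 to 0.24 for Fabp4. Thinning lowered 37 of 40 shares of cells beyond their interval, by its construction; the other causes were not tested.

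The labels do not say that replicate numbers pair mice. Deviations of same-numbered libraries correlated at -0.04 in alveolar macrophages, 0.04 in classical monocytes, 0.01 in nonclassical monocytes and -0.0015 in neutrophils. With 2 libraries per genotype such correlations cannot settle whether the samples were paired. With a replicate block, 336 genes were higher and 299 lower in alveolar macrophages, and 129, 101 and 123 were called in classical monocytes, nonclassical monocytes and neutrophils. The block called 1 of the 10 genes in nonclassical monocytes, Fabp4 (0.52, adjusted p = 0.0262).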
